A study of Mus musculus with 6 samples.

Results

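The 10 genes described here encode transcription factors and a transcriptional adaptor that set the fate of blood cells: Gata1, Gata2, Runx1, Tal1, Lmo2, Spi1, Fli1, Myb, Mitf and Cebpa. They were taken by symbol from a deposited table of 24672 genes measured by poly(A) RNA sequencing in 6 mouse libraries, and all 10 were found. The symbols were chosen by known function, with the levels and differences in these libraries already known. Levels are therefore a description, and an adjusted p beside a member only sets its difference against the spread between libraries. The series asks how retinoic acid starts meiosis in cultured C57BL/6 female germline stem cells and how their chromatin is reorganised. One group, FGSC, had 3 libraries from cells beyond passage 20 kept on inactivated STO feeders, an embryo-derived mouse fibroblast line, with LIF (10 ng/mL), EGF (20 ng/mL), bFGF (10 ng/mL) and GDNF (10 ng/mL). The other, Dif-FGSC, had 3 libraries of such cells moved onto inactivated granulosa cells with bFGF (10 ng/mL), BMP4 (10 ng/mL) and retinoic acid (0.1 µmol/L), and both media held fetal bovine serum. Feeder type and growth factors thus changed together with retinoic acid. The table names its columns con and dif, and con is read here as FGSC, so every direction below rests on that reading.

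Blood cell identity is set by a small set of factors that bind DNA together and are reused in different mixtures. GATA2, RUNX1, TAL1, LMO2 and FLI1 occupy shared enhancers in blood stem and progenitor cells, with LMO2 acting as a bridge that binds no DNA itself. GATA1 takes over from GATA2 at many sites as red cell and platelet precursors mature, while mast cells keep both. SPI1, also called PU.1, drives macrophages and B cells and antagonises GATA1, CEBPA drives granulocytes, and MYB sustains dividing progenitors. MITF acts with GATA2 in mast cells and is also used in pigment cells.

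The labelled germ cell identity was not seen in the markers listed for it. Of 11 germ cell markers, 10 stayed below 0.1 FPKM (fragments scaled to transcript length and to the mapped fragments of the library) in all 6 libraries, and Dazl, Nanos3, Gfra1, Tfap2c, Sohlh1 and Figla were listed at 0 throughout. The summed level of the 11 markers was 0 to 0.228 FPKM in FGSC and 0.0587 to 0.112 in Dif-FGSC. Ifitm3, the marker that passed 0.1 FPKM, reached 0.177 in FGSC and was listed at 0 in every Dif-FGSC library. Among feeder markers, 7 of 8 fibroblast and 6 of 7 granulosa genes stayed below 0.1 FPKM, with summed levels of 0.336 to 0.636 and 0.411 to 0.615 FPKM in FGSC against 0.163 to 0.235 and 0.272 to 0.452 in Dif-FGSC. Col3a1, Foxl2 and Fshr were listed at 0 in every library. Low values implied 17340000 to 26900000 fragments per library, and a floor of 3 fragments then corresponds to 0.0558 to 0.0865 FPKM for a transcript of 2000 bp. In such bulk samples, more cells of a type and more RNA per cell cannot be told apart.

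Of the 10 factors, 9 were expressed and 1, Cebpa, was listed at 0 in all 6 libraries. Gata2 stood far above the rest, at rank 255 of all 24672 genes by its mean. Between groups, Gata1, Gata2, Tal1, Runx1, Mitf and Myb were higher in Dif-FGSC, Lmo2 was lower, and Spi1 and Fli1 were not called. Differences are given as Dif-FGSC minus FGSC in log2(FPKM + 1) with the SE of the limma fit over 9162 genes with a mean of at least 1 FPKM, and a gene is called at an adjusted p under 0.05. This scale understates the change of low genes. With 6 of 9 tested members called higher, the background was 36.5% of all tested genes, and with 1 called lower it was 28.6%. In either direction 7 of 9 were called against 65.1% of all tested genes, and 7 of 9 had groups that did not overlap against 70.7%. The median member difference was 0.23, beside 0.03 for all tested genes. Nothing particular to the list is read from these shares, which lie near the background for calls in either direction and for separation.

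**Figure D1:**
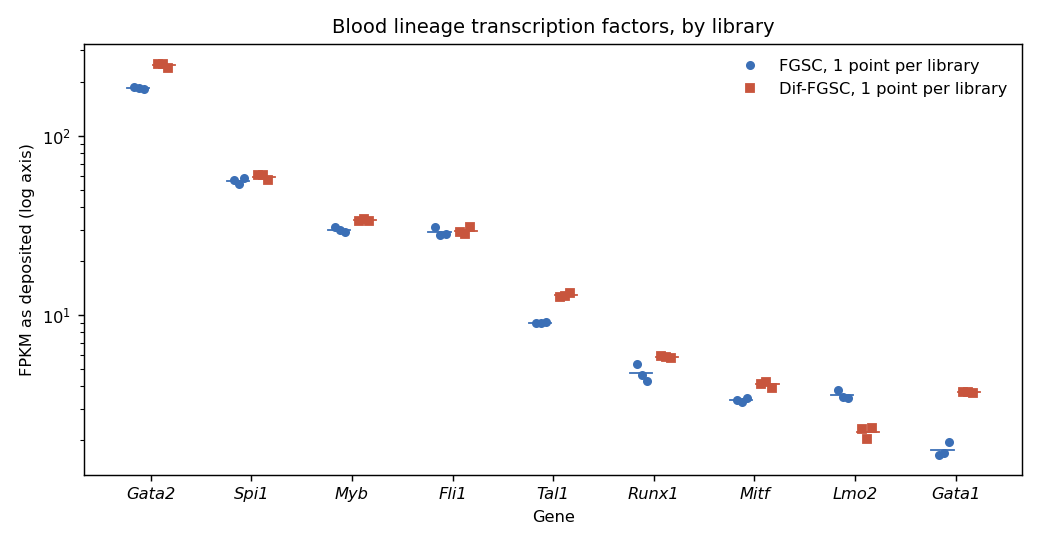
FPKM of the 9 expressed members in each of the 3 FGSC libraries (circles) and 3 Dif-FGSC libraries (squares) on a log axis, with a line at each group mean. The libraries of the groups stand apart for every gene drawn except Spi1 and Fli1, and Lmo2 is the member with the lower Dif-FGSC values.

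Gata2, the GATA factor of blood progenitors and mast cells, was listed at 186.6, 184.7 and 183.5 FPKM in FGSC libraries 1 to 3 and at 252.9, 252.0 and 240.4 in Dif-FGSC. Every Dif-FGSC library lay above every FGSC library. The mean rose by 34.3%, from 185 ± 1.57 to 248 ± 6.98 FPKM (SD, n = 3 each), a log2 difference of 0.42 ± 0.028 SE (limma adjusted p = 1.18e-05). Of all tested genes, 20.0% had a difference at least as large in either direction.

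Gata1, its relative in red cell, platelet and mast cell precursors, had the lowest FGSC level of the expressed members, while in Dif-FGSC the deposited level of Lmo2 was lower. It was listed at 1.65, 1.70 and 1.96 FPKM in FGSC and at 3.72, 3.75 and 3.66 in Dif-FGSC, with no overlap between groups. Its mean was 2.09 times as high in Dif-FGSC (3.71 ± 0.0482 against 1.77 ± 0.166 FPKM, SD), the largest ratio of the 9 expressed members. The log2 difference was 0.76 ± 0.055 SE (limma adjusted p = 1.81e-05), and 5.13% of tested genes differed by as much. These low values rest on an estimated 64.8 to 84.6 fragments per FGSC library and 135 to 158 per Dif-FGSC library, so counting error limits them more than those of Gata2.

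Since Gata1 rose by a larger factor than Gata2, the balance between them, taken within each library, differed between groups. The ratio of Gata2 to Gata1 FPKM was 113, 108 and 93.4 in FGSC and 68.0, 67.2 and 65.8 in Dif-FGSC. All 3 Dif-FGSC ratios were lower, and Gata2 was still far the more abundant. The means were 105 ± 10.1 and 67.0 ± 1.12 (SD, n = 3 each), and an exact two-sided permutation test gave p = 0.1, the smallest that 3 libraries against 3 allow. Spi1 to Gata1, the pair described as antagonists, went from 31.8 ± 2.54 to 16.0 ± 0.357. Gata2 to Spi1 went from 3.30 ± 0.138 to 4.19 ± 0.024. A scaling factor per library cancels in these ratios.

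**Figure D2:**
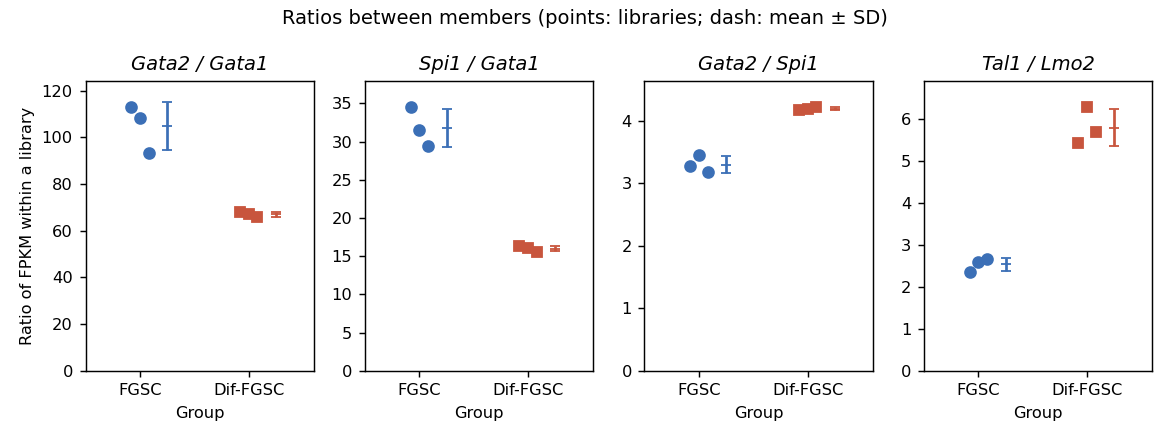
Ratios of FPKM between 2 members within each library, for FGSC (circles) and Dif-FGSC (squares), with the mean ± SD of 3 libraries beside the points and each axis starting at 0. The Gata2 to Gata1 and Spi1 to Gata1 ratios are lower in every Dif-FGSC library, and the Gata2 to Spi1 and Tal1 to Lmo2 ratios are higher.

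Tal1 and Lmo2, which join GATA factors in a shared DNA-binding complex, went in opposite directions. Tal1, the basic helix-loop-helix member of that complex, was listed at 9.06, 8.999 and 9.16 FPKM in FGSC and at 12.6, 12.7 and 13.4 in Dif-FGSC. The Dif-FGSC libraries were all higher, with a rise of the mean by 42.0% and a log2 difference of 0.46 ± 0.036 SE (limma adjusted p = 2.67e-05). Lmo2, the LIM adaptor, was listed at 3.84, 3.48 and 3.44 FPKM in FGSC and at 2.33, 2.03 and 2.35 in Dif-FGSC. All 3 Dif-FGSC values were lower. The mean fell by 37.7%, from 3.59 ± 0.223 to 2.23 ± 0.182 FPKM, a log2 difference of -0.50 ± 0.061 SE (limma adjusted p = 0.00024). The Tal1 to Lmo2 ratio was 2.36, 2.59 and 2.67 in FGSC and 5.41, 6.27 and 5.67 in Dif-FGSC, so it was higher in every Dif-FGSC library.

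Runx1, the runt-domain factor needed for blood stem cells to form, was listed at 5.33, 4.61 and 4.29 FPKM in FGSC and at 5.89, 5.81 and 5.78 in Dif-FGSC. The groups did not overlap, although FGSC replicate 1 lay closer to the Dif-FGSC libraries than the other FGSC libraries did. Its log2 difference of 0.25 ± 0.066 SE (limma adjusted p = 0.0111) was no longer called after quantile normalization (adjusted p = 0.0731, within a range of 0.00141 to 0.0731 over the 14 alternatives). Without FGSC replicate 1 the difference was 0.33 (adjusted p = 0.00141). Mitf, the leucine zipper factor of mast and pigment cells, was listed at 3.35, 3.26 and 3.44 FPKM in FGSC and at 4.13, 4.26 and 3.94 in Dif-FGSC. All Dif-FGSC values were higher, with a rise of the mean by 22.7% and a log2 difference of 0.23 ± 0.045 SE (limma adjusted p = 0.00259). Myb, the factor of dividing progenitors, was listed at 31.1, 29.7 and 29.3 FPKM in FGSC and at 33.4, 34.5 and 33.6 in Dif-FGSC. This was the smallest called rise among the members, 12.6% of the mean, with a log2 difference of 0.17 ± 0.034 SE (limma adjusted p = 0.0035). Quantile normalization lowered the log2 differences of Mitf to 0.13 (adjusted p = 0.0223) and of Myb to 0.099 (adjusted p = 0.0395), and both were still called.

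The ETS factors Spi1 and Fli1 were well expressed, and neither was called. Spi1 was listed at 57.1, 53.6 and 57.8 FPKM in FGSC and at 60.7, 60.1 and 57.0 in Dif-FGSC, and the groups overlapped. Its log2 difference was 0.08 ± 0.04 SE (limma adjusted p = 0.124). Fli1, an ETS factor of platelet precursors and of vessels, was listed at 31.0, 28.1 and 28.3 FPKM in FGSC and at 29.1, 28.4 and 31.0 in Dif-FGSC, with overlapping groups. Its log2 difference was 0.02 ± 0.049 SE (limma adjusted p = 0.761), and its sign turned with median-ratio scaling (-0.02), after quantile normalization (-0.06, adjusted p = 0.332), without FGSC replicate 2 or 3 and without Dif-FGSC replicate 3. Cebpa, the granulocyte factor, was listed at 0 in all 6 libraries. At the lowest depth a floor of 3 fragments still allows it 0.0659 FPKM, and a listed 0 can also be a failed estimate.

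**Figure D3:**
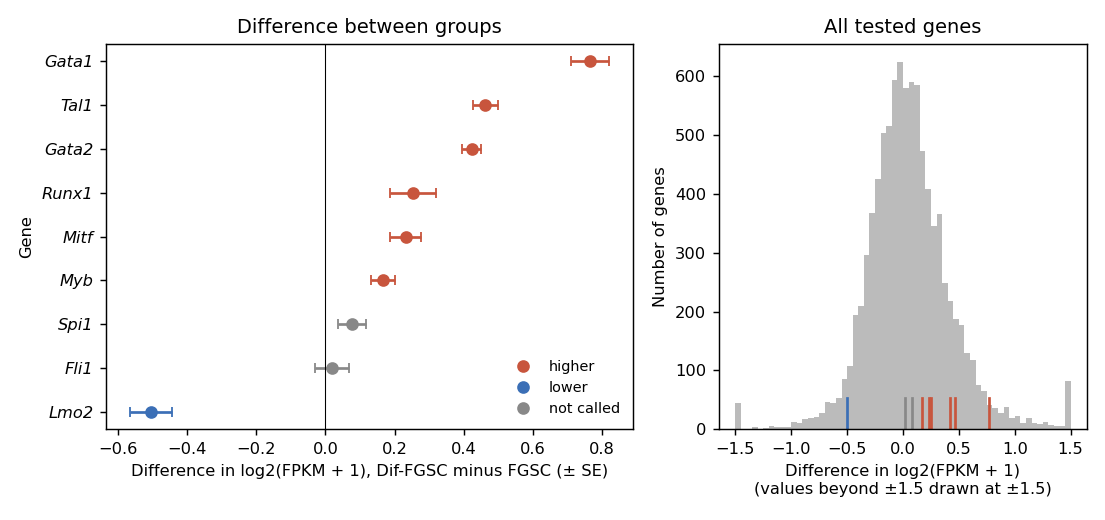
Left, the difference in log2(FPKM + 1) between Dif-FGSC and FGSC for the 9 tested members with its SE, coloured by call. Right, the same difference for all 9162 tested genes, with ticks at the members' values. Gata1 lies furthest to the right at 0.76 and Lmo2 is the member to the left of 0 at -0.50.

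Levels of different members can be set in order only with a limit that the digits of the deposited values show. Cufflinks, one of the tools named in the submitters' processing notes, writes an estimate with at most 6 significant digits, and this held for the values of Gata1, Spi1 and Fli1. The values of Gata2, Tal1, Myb, Runx1, Lmo2 and Mitf had 7 to 10 digits. Spi1 has 3 transcripts in the RefSeq table used here, but its digits are those of 1 estimate. Across genes with a mean of at least 1 FPKM, more than 6 digits occurred for 0.299% of 4689 genes with 1 curated RefSeq transcript, 74.1% of 2039 genes with 2 and 89.1% of 1017 genes with 3. Of the genes with 3 transcripts, 550 had values that ended within 7 decimals when multiplied by 3 but not before, as Mitf did, and none of the 4689 genes with 1 transcript had such values. These are the digits that averaging over a gene's transcripts would give. On that reading the deposited level of a gene with several transcripts is its total divided by their number. Summed levels of gene lists, cutoffs on FPKM and the rank of Gata2 use deposited values. They would then mix totals with such averages, which limits comparison between lists.

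As deposited, the FGSC means were ordered Gata2 (185 FPKM), Spi1 (56.2), Myb (30.0), Fli1 (29.1), Tal1 (9.07), Runx1 (4.74), Lmo2 (3.59), Mitf (3.35) and Gata1 (1.77). Myb and Fli1 overlapped between libraries, as did Lmo2 and Mitf. In Dif-FGSC the last 3 were Mitf (4.11), Gata1 (3.71) and Lmo2 (2.23), without overlap. Multiplied by the curated transcript number where the digits exceed 6, Gata2 came to 370 and 497 FPKM, Myb to 60.0 and 67.6, Tal1 to 18.1 and 25.8, Runx1 to 19.0 and 23.3, Mitf to 10.1 and 12.3, and Lmo2 to 14.3 and 8.94. Myb then stood above Spi1, and Gata1 was lowest in both groups. Gata2 remained first on either scale. On this scale the mean Gata2 to Gata1 ratio was 210 in FGSC and 134 in Dif-FGSC, that of Gata2 to Spi1 6.59 and 8.38, and that of Tal1 to Lmo2 1.27 and 2.89. Such a constant factor changes no direction of a member between groups.

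**Figure D4:**
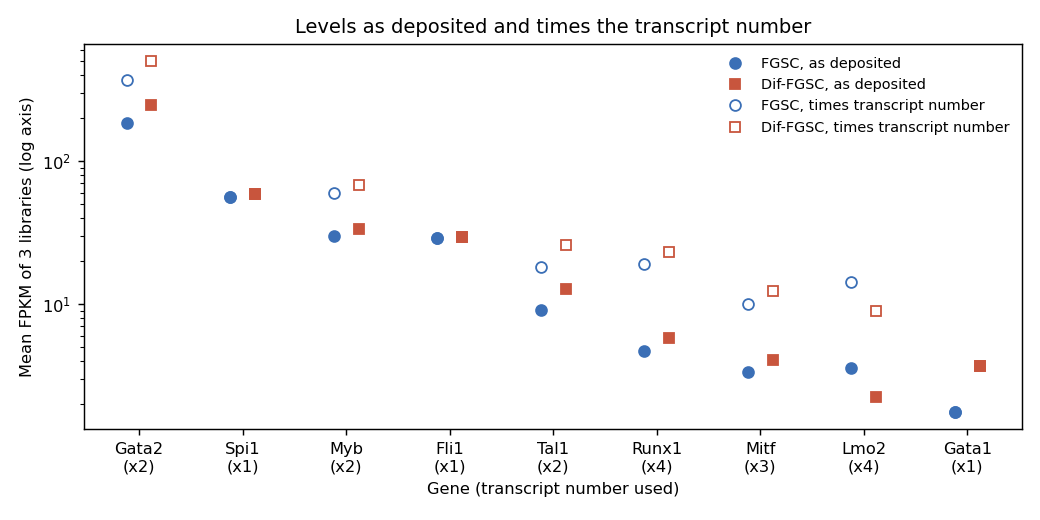
Mean FPKM of 3 libraries for the 9 expressed members on a log axis, as deposited (filled) and times the transcript number given under each symbol (open), for FGSC (circles) and Dif-FGSC (squares). Gata2 is highest on both scales, and Lmo2 lies above Gata1 in Dif-FGSC only after multiplication.

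GATA factors are known to bind near blood genes, including their own, so the letters before the members' start sites were read. RefSeq windows of build GRCm38.p6, a later build than the mm9 named in the submitters' processing notes, covered 7 of the 10 members with 12 start sites. For 11 of the 12, the last letters of the RefSeq sequence were found in a GENCODE transcript of the same gene. For the remaining start the orientation rests on RefSeq alone. The 250 bases before each start were searched on both strands for GATAA, the core letters of a GATA site. Shown 5′ to 3′ on the gene's strand, with GATAA or its complement TTATC in capitals, are the first start of Gata1, Gata2 and Tal1 and the third start of Mitf, none of which touches an annotated exon.
Gata1 (chrX:7967911-7968160, minus strand): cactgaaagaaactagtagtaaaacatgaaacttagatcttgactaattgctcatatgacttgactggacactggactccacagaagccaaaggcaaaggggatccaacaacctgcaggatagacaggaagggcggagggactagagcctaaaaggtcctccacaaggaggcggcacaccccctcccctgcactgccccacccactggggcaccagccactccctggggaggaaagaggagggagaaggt
Gata2 (chr6:88193641-88193890, plus strand): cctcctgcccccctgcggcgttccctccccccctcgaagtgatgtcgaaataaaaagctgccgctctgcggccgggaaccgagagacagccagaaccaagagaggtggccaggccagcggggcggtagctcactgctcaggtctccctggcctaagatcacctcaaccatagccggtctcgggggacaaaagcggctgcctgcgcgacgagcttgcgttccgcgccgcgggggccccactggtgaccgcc
Tal1 (chr4:115056176-115056425, plus strand): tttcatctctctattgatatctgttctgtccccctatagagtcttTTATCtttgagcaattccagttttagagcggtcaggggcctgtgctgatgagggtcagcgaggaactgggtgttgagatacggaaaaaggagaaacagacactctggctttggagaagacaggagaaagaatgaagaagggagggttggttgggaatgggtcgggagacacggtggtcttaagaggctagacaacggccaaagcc
Mitf (chr6:97991533-97991782, plus strand): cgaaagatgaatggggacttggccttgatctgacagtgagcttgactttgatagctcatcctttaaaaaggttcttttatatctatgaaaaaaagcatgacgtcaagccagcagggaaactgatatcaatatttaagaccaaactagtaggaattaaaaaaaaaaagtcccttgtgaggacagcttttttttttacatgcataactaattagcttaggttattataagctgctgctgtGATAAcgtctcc

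The Tal1 window held a match that began 205 bases before the start, and the Mitf window a match 12 bases before it. Neither the Gata1 window nor the Gata2 window had these letters. The second Tal1 start, whose window is not shown, touched no exon either and held no GATAA. Runx1 and Myb, which also rose, held no GATAA in any of their windows, which are not shown. Values are deposited per gene, so which start was in use is not known. Over all 12 windows of members, 3 held GATAA, the third being that of the second Mitf start, where it began 36 bases upstream. This is 25% of the windows, beside 22.6% of 32851 RefSeq windows of the same length, so the members' share lay near that of promoters at large. The E-box letters CANNTG, bound by factors of the TAL1 and MITF type, occurred in 3 of 12 windows against 66.2% of all windows. A match is a description of letters and not of binding.

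Cofactors that work with these factors were called in both directions. Of 25 cofactors, 21 passed the filter on low values, and 13 were higher, 4 lower and 4 not called, where 36.5% of all tested genes were higher and 28.6% lower. Their median log2 difference was 0.24 beside 0.03 for all tested genes. Zfpm1, the GATA1 partner FOG1, was listed at 22.8, 21.6 and 20.8 FPKM in FGSC and at 46.7, 46.6 and 42.5 in Dif-FGSC. All Dif-FGSC libraries were higher, with a log2 difference of 1.03 ± 0.049 SE (limma adjusted p = 2.89e-06). Cbfa2t3, a corepressor also called ETO2 that binds the TAL1 complex, rose from 3.30 ± 0.136 to 6.89 ± 0.187 FPKM, Crebbp, an acetyltransferase that GATA1 recruits, from 1.49 ± 0.14 to 2.81 ± 0.222, and Chd4, a remodeller of the NuRD complex, from 39.6 ± 0.513 to 60.8 ± 0.712. Hdac2, a deacetylase of the same complex, fell from 71.0 ± 2.19 to 55.0 ± 0.128 FPKM. Ssbp4, of the LDB1-binding family, fell from 72.9 ± 2.79 to 66.7 ± 1.79 FPKM, a call that was lost without Dif-FGSC replicate 2 (adjusted p = 0.0557) and without Dif-FGSC replicate 3 (adjusted p = 0.0615). After quantile normalization 10 of the 21 cofactors were higher and 5 lower, with a median of 0.15. With that scaling 2793 of all 9162 tested genes were higher and 3182 lower. Lyl1, Gfi1 and Gfi1b stand in more than one of the lists described here.

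Among family relatives of the members, 14 of the 32 found passed the filter on low values, and 5 were higher, 3 lower and 6 not called, beside the same 36.5% and 28.6% of all tested genes, with a median log2 difference of 0.05. After median-ratio scaling 4 were higher and 4 lower, and after quantile normalization 3 and 5, so the balance of this list depended on the scaling. That of all 9162 tested genes moved too, to 3030 higher and 2991 lower and to 2793 and 3182. Runx3, which shares the runt domain with Runx1, was listed at 41.5, 37.5 and 35.8 FPKM in FGSC and at 80.2, 76.4 and 76.5 in Dif-FGSC. The groups were far apart, at a log2 difference of 1.01 ± 0.054 SE (limma adjusted p = 4.55e-06), and the Runx3 level lay above that of Runx1 on either scale of transcript number. Etv6, an ETS repressor, rose from 5.84 ± 0.178 to 9.84 ± 0.0683 FPKM, and Mybl2, the MYB relative of cycling cells, from 44.0 ± 0.762 to 55.4 ± 1.35. Lmo4, a LIM relative of Lmo2, fell from 5.51 ± 0.28 to 4.14 ± 0.226 FPKM. Lyl1, the close relative of Tal1, was the most abundant of the list at 86.1 ± 4.77 and 86.5 ± 0.21 FPKM and was not called (limma adjusted p = 0.874). Erg, the relative of Fli1, did not exceed 0.483 FPKM in any library. Gata5 and Gata6 were listed at 0 throughout, and Gata3 did not exceed 0.217 FPKM.

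Among 47 other blood factors, 22 passed the filter on low values, and 13 were higher, 3 lower and 6 not called. The 16 calls in either direction stand beside 65.1% of all tested genes, and the 13 higher beside 36.5%. The median log2 difference was 0.18. After quantile normalization 10 were higher and 4 lower, beside 2793 and 3182 of all 9162 tested genes. Ikzf1, the lymphoid and myeloid factor Ikaros, rose from 8.41 ± 0.107 to 12.5 ± 0.125 FPKM. Mafk, a small Maf partner of the platelet factor NFE2, rose from 23.2 ± 0.952 to 37.4 ± 1.35 FPKM. Gfi1b, a repressor of red cell and platelet precursors, rose from 5.95 ± 0.147 to 8.66 ± 0.884 FPKM, while its relative Gfi1, named after its values were seen, fell from 7.40 ± 0.512 to 5.38 ± 0.343. Stat5a, a mediator of cytokine signals, was listed at 0, 3.98 and 4.59 FPKM in FGSC and at 27.2, 26.0 and 26.1 in Dif-FGSC (limma adjusted p = 0.00212). The 0 was in FGSC replicate 1, the library with the most estimated fragments, and can be a failed estimate, so no fold is given. Its relative Stat5b, named after its values were seen, fell from 17.8 ± 0.335 to 14.2 ± 0.399 FPKM. How fragments were assigned between these relatives was not tested. Nfil3 fell from 26.6 ± 2.87 to 20.9 ± 0.171 FPKM. Bhlhe40 stood at 40.1 ± 2.80 and 44.9 ± 0.911 FPKM, a call that was lost without FGSC replicate 1 or 2 or without Dif-FGSC replicate 1 or 2 (adjusted p from 0.0648 to 0.0732). The B cell factor Pax5 was listed at 0 in every library.

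**Figure D5:**
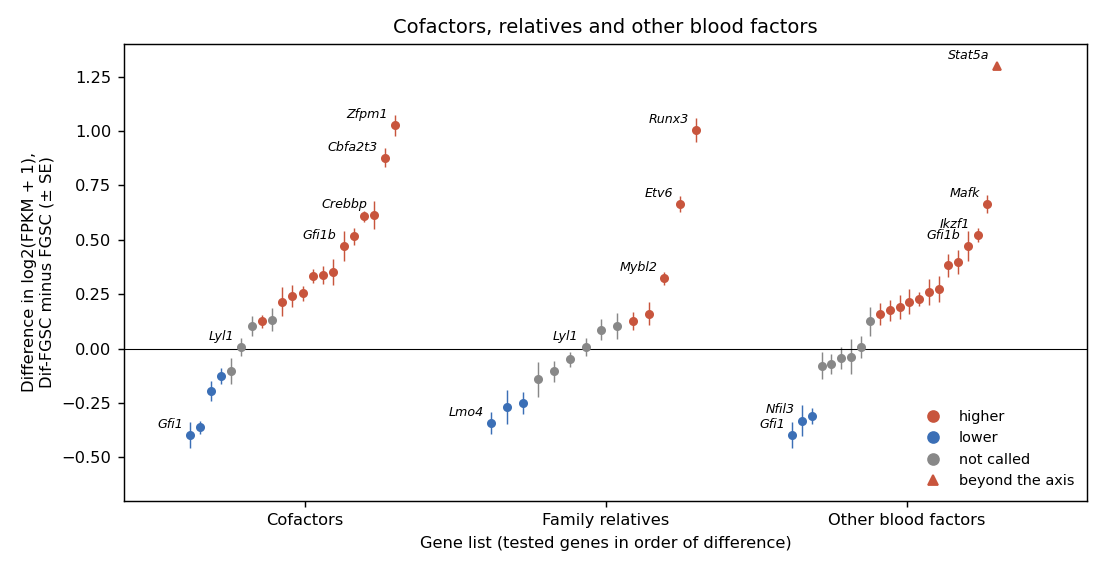
Difference in log2(FPKM + 1) between Dif-FGSC and FGSC, with its SE, for the tested cofactors (21), family relatives (14) and other blood factors (22) in order of size and coloured by call. Zfpm1 and Runx3 lie near 1, and Stat5a, with a listed 0 in FGSC, lies beyond the axis and is drawn as a triangle at its edge.

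Genes that these factors are known to govern in single lineages were present to very unequal extents. Of 17 mast cell and basophil genes, 8 were tested, with 6 higher and 1 lower beside 36.5% and 28.6% of all tested genes, and their summed level was 508 to 566 FPKM in FGSC and 563 to 590 in Dif-FGSC. Kit, the stem cell factor receptor and a known target of GATA2 and MITF, rose from 89.0 ± 5.20 to 114 ± 0.931 FPKM, and Srgn, the granule proteoglycan serglycin, from 51.4 ± 2.84 to 74.1 ± 2.75. Mcpt8, a basophil granule protease, rose from 0.596 ± 0.147 to 8.21 ± 0.925 FPKM, and Tph1, the enzyme of serotonin synthesis, fell from 60.0 ± 18.6 to 11.1 ± 3.87. Cpa3, the mast cell carboxypeptidase, stood at 288 ± 19.0 and 301 ± 10.5 FPKM and was not called (limma adjusted p = 0.27), although it was called higher after quantile normalization (adjusted p = 0.00233). Tpsb2, a mast cell tryptase, was listed at 0 throughout, and the IgE receptor chain gene Fcer1a did not exceed 0.0431 FPKM.

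Red cell genes, the classic targets of GATA1, were mostly near 0. Among the 15 found, 12 did not reach 0.1 FPKM anywhere, the summed level was 11.7 to 13.8 FPKM in FGSC and 12.5 to 14.1 in Dif-FGSC, and Epor, the erythropoietin receptor, was the tested one at 12.4 ± 1.05 and 12.1 ± 0.831 FPKM (limma adjusted p = 0.787). Klf1, the red cell Krüppel factor, stood at 0.248 ± 0.0546 and 0.226 ± 0.124 FPKM. Rhag, of the Rh complex in the red cell membrane, was listed at 0.111, 0.0788 and 0.223 FPKM in FGSC and at 0.497, 0.616 and 1.02 in Dif-FGSC. These groups did not overlap, but Rhag lay below the filter and was not tested. Of 13 platelet lineage genes 4 were tested, with 1 higher and 2 lower, beside 36.5% and 28.6% of all tested genes. The summed level of the 13 was 77.5 to 86.9 FPKM in FGSC and 77.0 to 79.2 in Dif-FGSC. Itga2b, the platelet integrin that GATA1 and FLI1 activate, fell from 53.0 ± 2.09 to 47.1 ± 1.06 FPKM, and Itgb3, its partner, rose from 16.2 ± 1.78 to 20.7 ± 0.162. Nfe2, the platelet factor that pairs with small Maf proteins, stood at 7.41 ± 0.401 and 7.01 ± 0.103 FPKM and was not called (limma adjusted p = 0.206), although it was called lower after quantile normalization (adjusted p = 0.00866). Pf4, a platelet chemokine, was lower in Dif-FGSC (limma adjusted p = 0.0408), but the groups overlapped and the call was lost without FGSC replicate 1 (adjusted p = 0.111), FGSC replicate 3 (0.119), Dif-FGSC replicate 2 (0.107) or Dif-FGSC replicate 3 (0.132), and without a filter on low values (0.0993).

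Of 19 myeloid genes, many of them targets of SPI1 and CEBPA, 7 were tested. Of these, 3 were higher and 4 lower, beside 36.5% and 28.6% of all tested genes. The summed level of the 19 was 159 to 175 FPKM in FGSC and 161 to 164 in Dif-FGSC. Csf2rb, the shared cytokine receptor chain, rose from 93.0 ± 4.27 to 116 ± 1.69 FPKM and Tyrobp, a signalling adaptor, from 13.4 ± 1.04 to 17.7 ± 1.55. Adgre1, the F4/80 antigen, fell from 20.3 ± 0.324 to 4.28 ± 0.173 FPKM and Fcgr3, an Fc receptor, from 26.3 ± 3.24 to 13.5 ± 0.397. Ctsg, the granule protease cathepsin G, fell from 6.17 ± 0.0478 to 3.34 ± 0.253 FPKM (limma adjusted p = 1.59e-05). The granulocyte genes Elane, S100a8 and S100a9 were listed at 0 throughout. All 8 B cell and all 9 T cell genes fell below the filter, with summed levels of at most 0.114 and 0.624 FPKM. Of 10 stem and progenitor genes, Hlf (13.0 ± 1.24 and 12.2 ± 0.372 FPKM) and Meis1 (2.07 ± 0.0419 and 2.35 ± 0.277) were tested and not called. Slamf1, below the filter and not tested, was listed at 1.12 ± 0.166 and 0.202 ± 0.0774 FPKM in groups that did not overlap. The summed level of the list was 15.1 to 18.1 FPKM in FGSC and 14.8 to 15.2 in Dif-FGSC.

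Several members are also used outside blood, so the defining genes of those cells were read beside them. Of 10 endothelial genes, where Gata2, Tal1 and Fli1 are active too, 7 stayed below 0.1 FPKM and Cdh5, Tek, Emcn and Sox17 were listed at 0 in every library. Their summed level was 6.10 to 6.76 FPKM in FGSC and 4.14 to 4.199 in Dif-FGSC. Egfl7, the tested one, fell from 5.77 ± 0.322 to 3.29 ± 0.112 FPKM. Pecam1, below the filter and not tested, lay the other way at 0.0874 ± 0.00362 and 0.403 ± 0.0575 FPKM, without overlap. Of 7 pigment cell genes, several of which are targets of MITF, Dct, Tyrp1, Mlana, Sox10 and Oca2 were listed at 0 throughout. The summed level of the list was 0 in FGSC and up to 0.319 FPKM in Dif-FGSC. In the liver and fat list, where CEBPA is active, 6 of 7 genes stayed below 0.1 FPKM. The part of any admixed cells in the members' differences was not tested.

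The genes closest to Gata2 and Spi1, the members with the highest deposited means, in log2(FPKM + 1) over the 6 libraries were listed by Euclidean distance. For Gata2 they were Hnrnpa0 (distance 0.209), Rcc2 (0.269) and Gars (0.279), which stood at 193 ± 13.4, 168 ± 5.82 and 189 ± 3.85 FPKM in FGSC and at 238 ± 14.8, 239 ± 6.40 and 224 ± 1.95 in Dif-FGSC. For Spi1 they were Mrpl37 (0.126), Alox5ap (0.135) and Pgp (0.139). The distance takes in both the level and the difference between groups. It was taken on the deposited values, so with values times transcript number the genes closest to Gata2 could differ.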

How the data were processed

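The 10 members, the gene lists and the tests were chosen with earlier results of these data known. Poly(A) libraries were made with a KAPA stranded kit, per the labels' protocols. The authors deposited FPKM values with 1 row per symbol. HISAT2 4.8.2, Cufflinks 2.2.1 and build mm9 are named in the submitters' processing notes, without their roles, and no source used here gives the annotation or the strand setting. A transcript on the opposite strand overlaps exons of Runx1, Myb and Cebpa in GENCODE M21, so their values are uncertain if strand was not used. Of 24674 rows, 2 with a duplicated symbol were dropped (the higher mean was kept). No count model was used. limma 3.58.1 in R 4.3.3 (eBayes with trend, Benjamini-Hochberg over all tested genes) was run on log2(FPKM + 1) for 9162 genes with a mean of at least 1 FPKM. On simulated data of 9119 genes it recovered 36 of 50 genes changed 1.2-fold and 49 of 50 changed 1.5-fold, with the fold applied to FPKM + 1. The changed genes were drawn from those with a mean of at least 5 FPKM, so this recovery does not cover Gata1, Lmo2 and Mitf. Far fewer genes were changed there than were called in these data. Nothing in the labels ties the 3 libraries of a group to different cultures. The p-values are therefore relative to a spread among libraries that may be only technical. Depth came from the steps between low values of genes with 1 transcript, of which 74.7% to 77.5% per library lay within 0.1 of a whole fragment (20% by chance, with the step set on the same values). Fragment numbers and floors cover counting error only. Named besides all members were, from each list of cofactors, relatives and other factors, up to 4 called genes with the largest difference and 3 with the highest mean, and from each marker list up to 2 and 3. The 3 nearest genes were taken for the 2 members with the highest deposited mean (times transcript number, Myb would replace Spi1). Genes of this rule that fell below the filter are mostly given through the summed level of their list. Any other gene was named after its values were seen. The alternatives were another pseudocount (0.1), 2 filters, 2 scalings, no trend, a replicate block, each library left out and values times transcript number (added after seeing the data).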

Additional observations from a re-analysis of the deposited data

How the results depend on the processing

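Over the 14 alternatives, 122 values of single members kept their side of the threshold and 1 did not, that of Runx1 after quantile normalization (log2 difference 0.17, adjusted p = 0.0731). The counts of members called were 6 higher and 1 lower in every alternative but 2. Quantile normalization left 5 higher, where 2793 of all 9162 tested genes were higher and 3182 lower. A filter at a mean of 5 FPKM tested 6 members and left 4 higher and 0 lower by limma (also 0 at an unadjusted p under 0.05). This was because Lmo2, Mitf and Gata1 were not tested there. With that filter 2443 of all 6425 tested genes were higher and 2034 lower. Leaving out each library in turn gave 6 higher and 1 lower each time, with 2984 to 3401 of all tested genes higher and 2317 to 2565 lower. The median log2 difference of all tested genes was 0.029 as deposited, -0.0036 with median-ratio scaling and -0.022 after quantile normalization. With the replicate block, 3241 genes were higher and 2557 lower against 3343 and 2622 without it, and 6 members were higher and 1 lower. Same-numbered libraries deviated together with correlations of 0.131, 0.0123 and 0.173 over genes for replicates 1 to 3. Those of replicates 1 and 3 were the largest of all pairs, but FGSC replicate 2 correlated best with Dif-FGSC replicate 1 (0.106). Whether same-numbered libraries share a batch is therefore not known, and the labels give only the number. Gata1 rests on the fewest fragments of the members that the digits tie to 1 transcript.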
